A study of Mus musculus with 2 samples.

Results

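Chromatin modifiers and remodellers were taken from the gene tables by symbol, namely every gene whose name begins with Kmt, Kdm, Hdac, Brd, Arid or Chd and a digit, with Setd or Smarc, or is Ezh1 or Ezh2, leaving out Arid5b. The rule found 88 of the 20634 genes listed. They comprised 20 writers (Kmt, Setd and Ezh genes), 29 erasers (Kdm and Hdac genes), 7 readers (Brd genes), 26 remodellers (Smarc and Chd genes with Arid1a, Arid1b and Arid2) and 6 other ARID genes. The genes were measured by RNA-seq in whole uteri of pregnant mice on gestational day 4, with the vaginal plug counted as day 1, with 1 library from each genotype, Mettl3 f/f and Mettl3 ed/ed. Females were 6 to 8 weeks old when mated with fertile males. The labels name neither a Cre driver for the ed/ed allele, nor the cells it acts in, nor the number of animals behind a library. With 1 library per genotype no spread between animals could be estimated, so every difference below is between these 2 libraries and has no p-value.

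DNA in the nucleus is wound around histones, and the chemical marks on histone tails, together with the placing of nucleosomes, set which genes can be transcribed. Writers add methyl groups to histone lysines, erasers remove methyl or acetyl groups, readers bind acetylated lysines through bromodomains, and remodellers use ATP to move or evict nucleosomes. In the uterus these enzymes act with the estrogen and progesterone receptors, whose target genes prepare the epithelium and stroma for the embryo around the time of implantation. Mettl3 itself encodes the enzyme that writes N6-methyladenosine on RNA and does not act on histones.

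Values are FPKM, fragments scaled to transcript length and to the mapped fragments of the library, as inferred for the deposited tables. Each ratio divides the ed/ed value plus 1 by the f/f value plus 1, on a log2 scale, and is given for the 12165 genes that reached 1 FPKM in at least 1 library. They understate the differences of low genes. The steps between low values put the depth at about 18300000 fragments in f/f, against 17400000 in ed/ed. Mettl3 was at 10.6 FPKM in f/f against 10.2 in ed/ed, so its level did not separate the libraries and directions rest on their labels. Over all genes the median log2 ratio was -0.26. The 4 other scalings tried multiply the ed/ed values by factors of 0.09 to 0.34 on the log2 scale, so class medians are also given relative to that median. Of the markers of the tissue, all 4 stromal genes, both endothelial genes and both proliferation genes had lower FPKM in ed/ed, with summed levels of 610 and 313, 70.7 and 24.0, and 49.8 and 26.8 FPKM in f/f and ed/ed. Both steroid receptor genes were also lower (summed 79.5 and 52.7). Epithelial markers summed to 1057 and 983 FPKM (2 of 4 higher, 2 lower), and the 3 myometrial markers, all higher, to 220.5 and 283. The immune marker Ptprc was at 3.65 and 5.88 FPKM. Of 5 germ cell and embryo markers, 4 were listed at 0 in both libraries and Ddx4 was at 0.0857 and 0.391 FPKM, and of the neuronal markers Rbfox3 was at 0.0211 and 0.184 and Tubb3, listed at 0 in f/f, had 0.273 in ed/ed. The part of these markers in the results below was not tested, and in whole uterus fewer cells of a type and less RNA per cell cannot be told apart.

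Of the 88 chromatin genes, 84 passed the filter and 4 (Arid3c, Chd5, Kdm4d and the Y-linked Kdm5d) were listed at 0 in both libraries. Hdac9 and Kdm8 passed only through the f/f library. Of the 84, 73 (86.9%) had lower FPKM in ed/ed and 11 higher, while 8564 of all 12165 genes (70.4%) were lower. Their median log2 ratio was -0.34 (SD 0.42 across genes), 0.08 below that of all genes, and their summed level was 1688 FPKM in f/f against 1288 in ed/ed. Only Arid5a was at least 2-fold higher (1.19%, against 2.68% of all genes), and Hdac5 and Hdac6 were at least 2-fold lower (2.38%, against 6.22%). At 1.5-fold, 2 were higher (2.38%, against 7.04%) and 22 lower (26.2%, against 23.4%). Differences of 2-fold were therefore no more frequent among chromatin genes than among genes in general. At 1.5-fold the share of lower genes was near the background and that of higher genes below it. The sign depended on the scale for 25 of the 84, whereas 48 were below 0 and 11 above 0 as deposited and under all 4 other scalings. These counts were not made over all genes and so have no background share. Beside the overlaps named with a gene below, exons overlap an opposite-strand gene over 24.6% of bases in Kdm3b, 15.4% in Hdac11, 9.19% in Kdm1b, 7.13% in Smarcd1, 6.28% in Kmt5b and 5.77% in Kdm2b and Chd8, and reads of such pairs may not have been told apart.

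**Figure D1:**
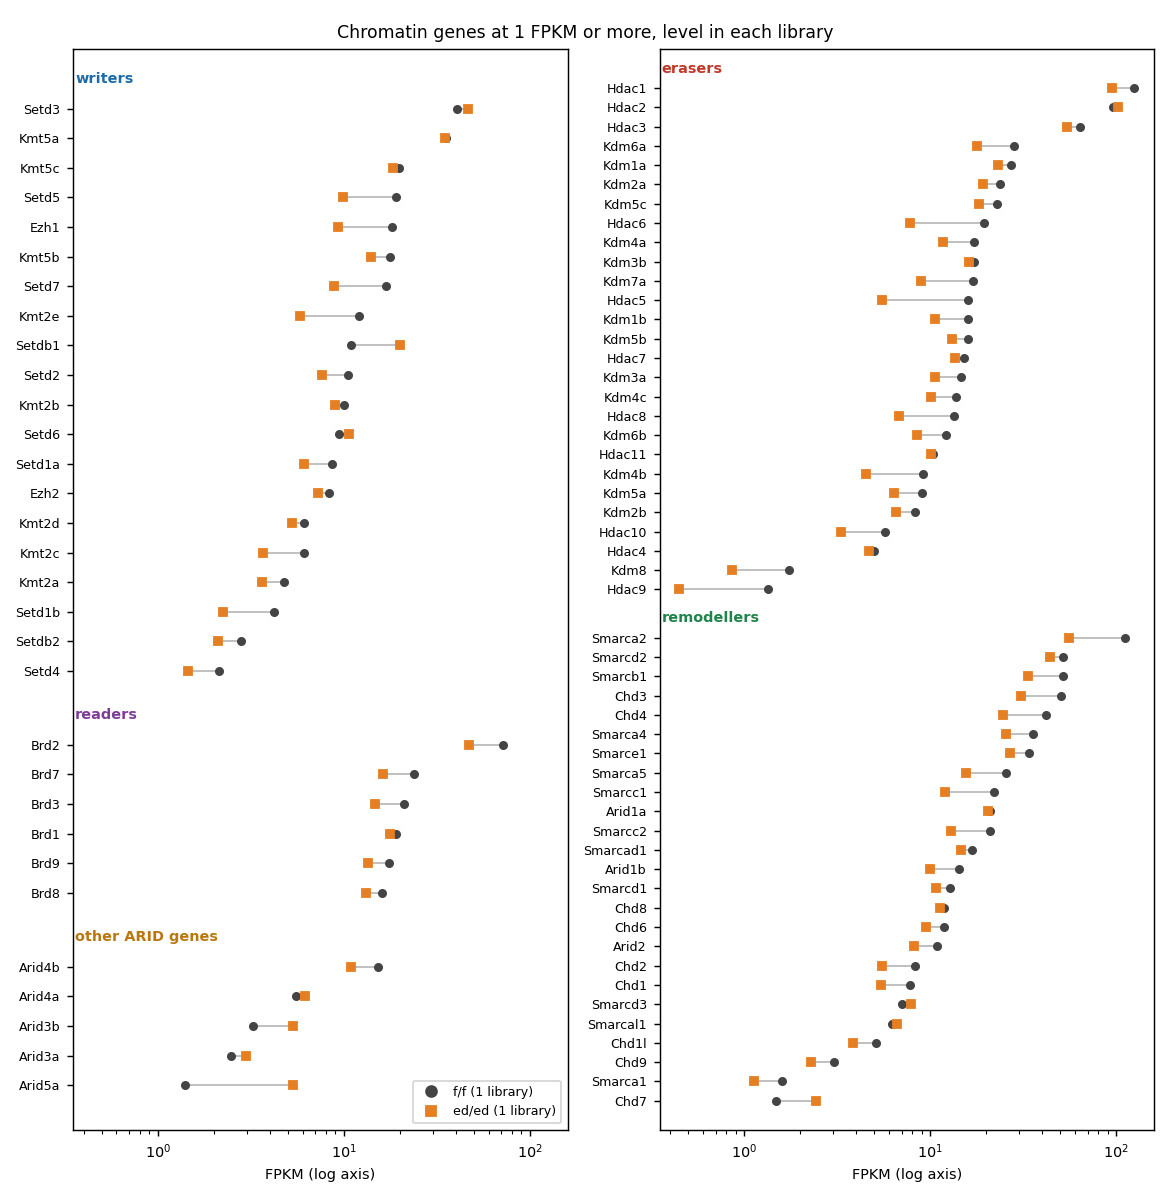
FPKM (log axis) of chromatin genes that passed the filter, grouped by class and ordered by the f/f level, with grey circles for the f/f library and orange squares for the ed/ed library. Most orange squares lie to the left of their circle, while Arid5a (1.40 and 5.33 FPKM) and Setdb1 (10.995 and 19.97 FPKM) lie to the right.

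Writers varied around the median of all genes. Of 20, all passed the filter, 12 lay below that median, 8 lay above it, and the class median was -0.32, 0.06 below all genes. None reached 2-fold, against 2.68% of all genes higher and 6.22% lower. At 1.5-fold, 6 were lower (30%, against 23.4% of all genes) and 1 was higher (5%, against 7.04%). The 1.5-fold lower share was similar in erasers (29.6%) and remodellers (28%). The higher gene was Setdb1, which encodes a histone H3 lysine methyltransferase that silences endogenous retroviruses. Setdb1 (ENSMUSG00000015697, chromosome 3, 95323525 to 95357202, GRCm38) had 10.995 FPKM in f/f against 19.97 in ed/ed. Its log2 ratio of 0.81 lay 1.07 above the all-gene median, and the plain FPKM ratio was 1.82 (95% counting interval 1.68 to 1.96, from about 1085 and 1872 fragments). Among the chromatin genes its rank by level moved from 52 in f/f to 16 in ed/ed. Under the median-ratio, upper-quartile and reference-gene scalings it passed 2-fold. The paralogue Setdb2 was at 2.81 and 2.10 FPKM.

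The Polycomb methyltransferase genes differed from each other. Ezh2, the main catalytic subunit of Polycomb repressive complex in dividing cells, was at 8.29 FPKM in f/f against 7.26 in ed/ed. Ezh1, its paralogue in resting cells, was at 18.1 and 9.34 FPKM, a log2 ratio of -0.89. Ezh1 was thus the more abundant in both libraries, but the ratio of Ezh1 to Ezh2 was 2.18 (95% counting interval 1.95 to 2.45) in f/f and 1.29 (1.12 to 1.47) in ed/ed. Such a ratio within a library does not depend on the scaling of the libraries. The partner subunit genes Eed and Suz12 were at 16.2 and 12.5 and at 18.31 and 16.1 FPKM.

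As deposited, methyltransferase genes of the MLL and SETD1 families, which write the mark of active promoters and enhancers, were all lower in ed/ed. The share of lower genes over all genes was 70.4%. Under the median-ratio, upper-quartile and reference-gene scalings Kmt2b and Kmt2d had ratios above 0. The median level of the 6 genes was 6.12 FPKM in f/f against 4.49 in ed/ed, while that of all genes was 10.9 and 9.01. Kmt2a was at 4.77 FPKM in f/f against 3.62 in ed/ed, and Kmt2b at 10.1 and 9.02. Of the enhancer enzymes, Kmt2d was at 6.12 and 5.29 FPKM and Kmt2c at 6.11 and 3.69. Kmt2c and Kmt2d therefore stood level in f/f (ratio 1.00, 0.938 to 1.07) and apart in ed/ed (0.697, 0.644 to 0.754). Setd1a, 51.8% of whose exonic bases are shared with the annotated gene Gm49388 on the same strand, was at 8.64 and 6.13 FPKM. Setd1b was at 4.2 and 2.24 FPKM. The median log2 ratio of these 6 genes was -0.38, but 0.06 once the length trend described below was removed.

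Of the genes classed as writers by symbol alone, Kmt2e had the lowest log2 ratio, -0.95. Kmt2e, a relative of the MLL genes, was at 12.1 FPKM in f/f against 5.78 in ed/ed. Its exons overlap those of Srpk2 on the opposite strand over 9.31% of their bases. Setd5 was at 19.0 and 9.95 FPKM, and Setd7, a monomethyltransferase of histones and other proteins, at 16.8 and 8.88. These 3 genes were 1.80-fold to 1.93-fold lower on the log2(FPKM + 1) scale and did not pass 2-fold. Setd2, which writes the mark of transcribed gene bodies, was at 10.6 and 7.65 FPKM.

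Writers of histone H4 methylation lay above the median of all genes or close to it. Kmt5a, the monomethyltransferase of this mark, was the second most abundant writer in f/f, at 35.3 FPKM and 34.8 in ed/ed. Kmt5b and Kmt5c, which extend it, were at 17.8 and 14.0 and at 19.8 and 18.5 FPKM. The most abundant writer by symbol was Setd3, at 40.7 and 46.5 FPKM, whose known substrate is actin and not a histone. Setd6 was at 9.38 and 10.7 FPKM and Setd4 at 2.13 and 1.46. Setd3, Setd6 and Setdb1 were the 3 writers with a ratio above 0 as deposited.

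Erasers had the lowest class median, -0.43, which was 0.17 below all genes. Of 29, 27 passed the filter, 20 lay below the all-gene median and 7 above, 2 were 2-fold lower (7.41%, against 6.22% of all genes) and none higher (against 2.68%). At 1.5-fold, 8 erasers were lower (29.6%, against 23.4% of all genes) and none higher (against 7.04%). The summed level of the class was 623 FPKM in f/f against 490 in ed/ed.

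Histone deacetylases remove acetyl groups and are divided into nuclear class I enzymes, class IIa enzymes that shuttle between nucleus and cytoplasm, class IIb enzymes and Hdac11. Of class I, Hdac1 was the most abundant chromatin gene in f/f and Hdac2 in ed/ed. Hdac1 was at 124 FPKM in f/f against 94.8 in ed/ed, and Hdac2 at 95.6 and 102. The order of both genes was therefore reversed, with a ratio of Hdac1 to Hdac2 of 1.29 (95% counting interval 1.24 to 1.35) in f/f and 0.927 (0.886 to 0.969) in ed/ed. Hdac2 was the only eraser with a ratio above 0 as deposited. Hdac3, the catalytic subunit of the NCoR and SMRT corepressors, was at 63.9 and 54.2 FPKM. Hdac8 was at 13.4 and 6.77 FPKM, a log2 ratio of -0.89. The ratio of Hdac2 to Hdac8 was 7.14 in f/f against 15.1 in ed/ed.

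Class IIa genes differed among themselves. Hdac5 (ENSMUSG00000008855, chromosome 11, 102194432 to 102230166) had 15.99 FPKM in f/f against 5.52 in ed/ed, the lowest log2 ratio of the 84 genes with 1 FPKM added, at -1.38, and a plain ratio of 0.345 (95% counting interval 0.311 to 0.383). Hdac7 was at 15.2 and 13.6 FPKM and Hdac4 at 4.95 and 4.70. Hdac9 was at 1.34 and 0.443 FPKM, and its plain ratio of 0.330 was below those of Hdac5 and Hdac6. Hdac5 and Hdac7 stood level in f/f (ratio 1.05, 0.976 to 1.13), but in ed/ed the ratio was 0.406 (0.366 to 0.452). For Hdac4, 22.4% of the exonic bases overlap the antisense lincRNA gene Gm26720.

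Of class IIb, Hdac6, the cytoplasmic deacetylase of tubulin, had the second lowest ratio with 1 FPKM added. Hdac6 (ENSMUSG00000031161, chromosome X, 7930120 to 7947889) had 19.5 FPKM in f/f against 7.77 in ed/ed, a log2 ratio of -1.23 and a plain ratio of 0.398 (0.363 to 0.436). It no longer passed 2-fold under the median-ratio and reference-gene scalings or without the length trend. Hdac10 was at 5.67 and 3.29 FPKM, and Hdac11 at 10.4 and 10.01. Across the 11 deacetylases the log2 ratio ranged from -1.38 to 0.10 with an SD of 0.50, against 0.22 across the 16 demethylases that passed the filter.

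Demethylases all had ratios below 0 as deposited, as did 70.4% of all genes. Under the reference-gene scaling Kdm1a, Kdm2a, Kdm2b, Kdm3b, Kdm5b and Kdm5c lay above 0. As deposited, 14 of the 16 demethylases lay below the all-gene median, and the median log2 ratio of the 16 was -0.43, 0.17 below all genes. Without the length trend 9 of the 16 lay below 0 and the median was -0.10. Kdm6a, an X-linked demethylase of the Polycomb mark, was the most abundant in f/f, at 28.1 FPKM and 17.9 in ed/ed. Its paralogue Kdm6b was at 12.1 and 8.43 FPKM, so that their ratio was 2.33 (2.18 to 2.48) and 2.12 (1.96 to 2.30), with overlapping intervals. Kdm1a, the amine oxidase that partners the CoREST corepressor, was at 27.1 and 23.2 FPKM and Kdm1b at 15.95 and 10.6. Kdm2a was at 23.7 and 19.2 FPKM, and Kdm2b at 8.28 and 6.56.

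The lowest demethylase ratios were those of Kdm4b, at 9.08 FPKM in f/f against 4.49 in ed/ed (log2 ratio -0.88), and Kdm7a, at 17.03 and 8.91 (-0.86). Kdm4b is a coactivator of the estrogen receptor in mammary cells. The related Kdm4a and Kdm4c were at 17.3 and 11.675 and at 13.8 and 10.1 FPKM. Kdm5 genes, which erase the mark of active promoters, kept their order, with Kdm5c at 22.75 and 18.28, Kdm5b at 15.9 and 13.1 and Kdm5a at 8.99 and 6.40 FPKM. Kdm3a and Kdm3b were at 14.5 and 10.5 and at 17.2 and 16.1 FPKM, and Kdm8 at 1.74 and 0.859.

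**Figure D2:**
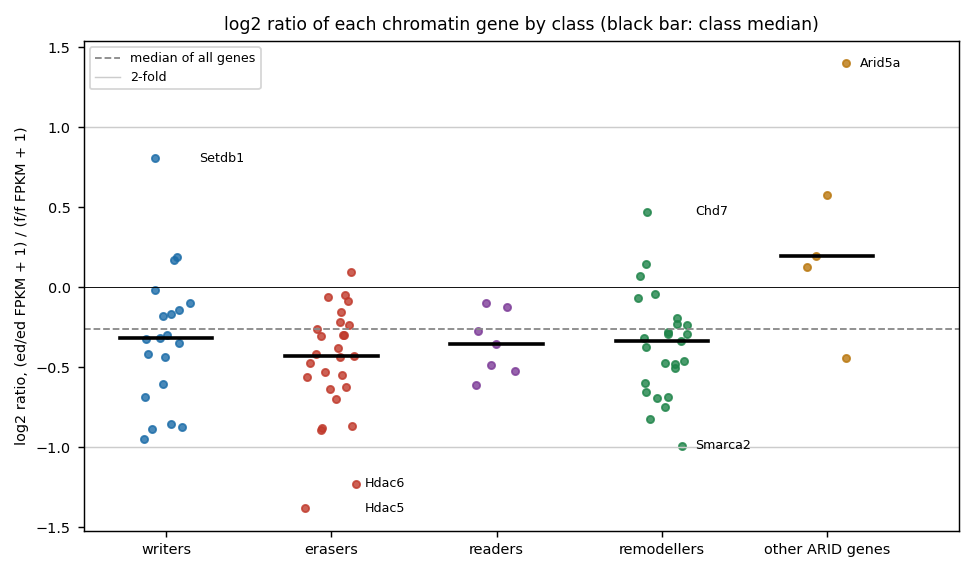
Log2 ratio, ed/ed to f/f with 1 FPKM added to each, of each chromatin gene that passed the filter, by class, with black bars for class medians, a dashed line at the median of all genes (-0.26) and grey lines at 2-fold. Hdac5, Hdac6 and Arid5a lie outside the 2-fold lines and Smarca2 lies just inside; sideways scatter has no meaning.

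Readers formed the narrowest class. All 7 Brd genes passed the filter and had lower FPKM in ed/ed, as did 70.4% of all genes. Their log2 ratios ran from -0.61 to -0.10 with a median of -0.35, 0.09 below all genes. None reached 2-fold, against 2.68% of all genes higher and 6.22% lower, and 1 was 1.5-fold lower (14.3%, against 23.4%). BET proteins bind acetylated histones and recruit elongation factors. Brd2 was by far the most abundant at 72.0 FPKM in f/f against 46.9 in ed/ed, and 5.18% of its exonic bases overlap an antisense gene. Brd3 was at 21.1 and 14.7 FPKM, and the ratio of Brd2 to Brd3 was 3.42 (3.25 to 3.60) in f/f against 3.18 (2.99 to 3.39) in ed/ed, with overlapping intervals. Brd7 and Brd9, bromodomain subunits of SWI/SNF complexes, were at 23.9 and 16.3 and at 17.6 and 13.5 FPKM. Brd1, a scaffold of an acetyltransferase complex, was at 19.1 and 17.7 FPKM and Brd8 at 16.1 and 13.1. Of the 7, 4 were below 0 under all 4 other scalings, a count that was not made over all genes.

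Remodellers had a median log2 ratio of -0.33, 0.07 below all genes. Of 26, 25 passed the filter, 17 lay below the all-gene median and 8 above. None reached 2-fold, against 2.68% of all genes higher and 6.22% lower. At 1.5-fold, 7 were lower (28%, against 23.4% of all genes) and none higher (against 7.04%). The summed level of the class, 584 FPKM in f/f against 401 in ed/ed, had the lowest ratio of the 5 classes, 0.686, since several of the abundant members were among the lower ones.

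BAF and PBAF are the mammalian SWI/SNF complexes, built around the ATPase Smarca2 (BRM) or Smarca4 (BRG1). Smarca2 (ENSMUSG00000024921, chromosome 19, 26605050 to 26778322) was the second most abundant chromatin gene in f/f, at 112 FPKM, and at 55.7 in ed/ed. Its log2 ratio of -0.99 was just short of 2-fold on this scale, and the plain ratio was 0.499 (0.483 to 0.515). Smarca4 was at 35.7 and 25.4 FPKM. Smarca2 remained the more abundant ATPase gene, but the ratio of Smarca2 to Smarca4 was 3.13 (3.02 to 3.24) in f/f and 2.19 (2.09 to 2.29) in ed/ed. The annotation gives Smarca2 46 transcripts, more than any other chromatin gene.

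Other BAF subunits differed among themselves, and all but Smarcd3 had lower FPKM in ed/ed. Smarcb1 was at 51.5 FPKM in f/f against 33.6 in ed/ed, and Smarce1 at 33.8 and 26.9. The scaffold genes Smarcc1 and Smarcc2 were at 21.9 and 11.95 and at 20.8 and 12.9 FPKM. Smarcd2 was at 51.7 and 43.7 FPKM and Smarcd1 at 12.8 and 10.8. Smarcd3, the form of muscle and heart, was at 7.01 and 7.86 FPKM, but 48.2% of its exonic bases overlap Chpf2 on the opposite strand. Of the ARID subunits that define the complexes, Arid1a, a BAF subunit needed for receptivity in the mouse uterus, was at 21.02 and 20.4 FPKM, Arid1b at 14.2 and 9.92, and the PBAF subunit Arid2 at 10.9 and 8.14. The ratio of Arid1a to Arid1b was 1.48 (1.41 to 1.56) in f/f and 2.06 (1.94 to 2.18) in ed/ed. Over the 12 subunits the median log2 ratio was -0.42, 11 were below 0 (91.7%, against 70.4% of all genes) and 8 below the median of all genes. Without the length trend the median was -0.05.

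Chd3 and Chd4, the ATPases of the NuRD deacetylase complex, were the most abundant Chd genes and had the lowest Chd ratios. Chd3 was at 50.1 FPKM in f/f against 30.7 in ed/ed (log2 ratio -0.69), and Chd4 at 41.8 and 24.5 (-0.75). Their ratio to each other was 1.198 (1.15 to 1.24) and 1.25 (1.19 to 1.32), with overlapping intervals. Smarca5, the main ISWI ATPase, was at 25.6 and 15.5 FPKM, while its paralogue Smarca1 was at 1.60 and 1.13.

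Of the other Chd genes, Chd7, which is mutated in CHARGE syndrome, went the other way. It was at 1.48 FPKM in f/f against 2.43 in ed/ed, a log2 ratio of 0.47 and a plain ratio of 1.65 (1.41 to 1.93) on about 269 and 421 fragments. Chd7 was below Chd9 in f/f (ratio 0.487, 0.423 to 0.562), and in ed/ed the interval of the ratio, 1.06 (0.931 to 1.21), spanned 1. Chd9 was at 3.03 and 2.29 FPKM, Chd6 at 11.8 and 9.51, and Chd8, a repressor of Wnt target genes, at 11.8 and 11.2. Chd1 and Chd2 were at 7.81 and 5.41 and at 8.27 and 5.53 FPKM, the latter sharing 18.4% of its exonic bases with a transcript on the same strand. Chd1l was at 5.11 and 3.85 FPKM. Smarcal1 and Smarcad1, remodellers of stalled replication forks and of repair sites, were at 6.23 and 6.59 and at 16.8 and 14.6 FPKM.

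**Figure D3:**
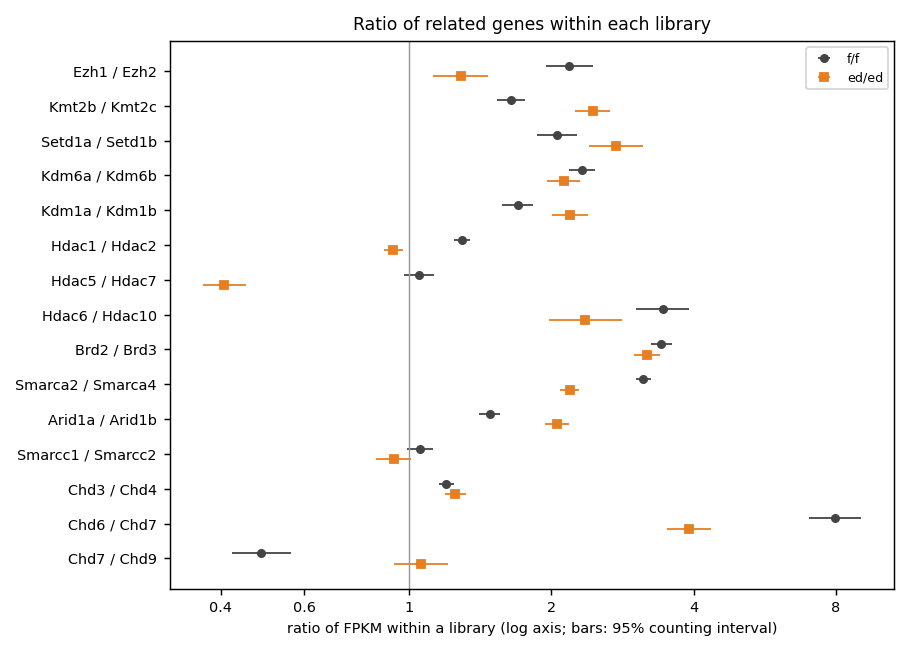
Ratio of FPKM between related chromatin genes within each library (log axis), with grey circles for f/f, orange squares for ed/ed and bars for the 95% counting interval, which does not cover differences between animals. Hdac1 to Hdac2 lies above 1 in f/f (1.29) and below 1 in ed/ed (0.927), and Smarca2 to Smarca4 goes from 3.13 to 2.19.

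The other ARID genes encode DNA-binding proteins outside the SWI/SNF core and were few, with Arid4b the most abundant. Of 6, 5 passed the filter, 4 had ratios above 0 (3601 of all 12165 genes did), and 1 was 2-fold higher (20%, against 2.68% of all genes). The class median was 0.19, or 0.45 above all genes, which fell to 0.26 above with a pseudocount of 5 FPKM. Arid5a, an RNA-binding protein that stabilises interleukin transcripts, had the highest ratio of the 84 genes. Arid5a (ENSMUSG00000037447, chromosome 1, 36307733 to 36324029) had 1.40 FPKM in f/f against 5.33 in ed/ed, a log2 ratio of 1.40 and a plain ratio of 3.82 (3.15 to 4.66) on about 134 and 486 fragments. Arid3b was at 3.24 and 5.32 FPKM and Arid3a at 2.49 and 2.99. Arid4a and Arid4b, subunits of the Sin3 deacetylase complex, were at 5.56 and 6.16 and at 15.3 and 10.98 FPKM, so that only Arid4b was below 0.

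Promoter sequences are shown for the genes with the most divergent ratios, Arid5a and Setdb1 on the high side and Hdac5 and Hdac6 on the low side. They come from RefSeq on GRCm38.p6 and run from 250 bases before to 50 after the annotated start, on the strand of the gene. The table held 68 of the 88 chromatin genes, with 91 promoters. Capitals mark matches, on either strand, to the GC box (GGGCGG) and the CCAAT box (CCAAT), and neither the TATA box (TATAAA) nor the interferon-stimulated response element (GAAANNGAAA) occurs in the 4 windows.
Arid5a, chr1:36307483-36307782, plus strand: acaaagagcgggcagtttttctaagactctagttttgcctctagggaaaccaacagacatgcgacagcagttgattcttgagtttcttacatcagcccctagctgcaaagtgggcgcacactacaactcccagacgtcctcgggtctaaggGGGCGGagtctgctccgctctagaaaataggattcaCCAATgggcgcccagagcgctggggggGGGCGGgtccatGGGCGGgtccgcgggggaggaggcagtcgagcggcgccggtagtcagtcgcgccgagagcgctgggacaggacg
Setdb1, chr3:95357153-95357452, minus strand: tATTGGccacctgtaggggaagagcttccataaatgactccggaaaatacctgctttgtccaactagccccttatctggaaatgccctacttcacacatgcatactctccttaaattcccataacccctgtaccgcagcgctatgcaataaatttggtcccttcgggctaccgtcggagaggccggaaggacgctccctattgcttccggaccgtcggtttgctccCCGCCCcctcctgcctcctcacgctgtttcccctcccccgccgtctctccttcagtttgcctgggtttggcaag
Hdac5, chr11:102230123-102230422, minus strand: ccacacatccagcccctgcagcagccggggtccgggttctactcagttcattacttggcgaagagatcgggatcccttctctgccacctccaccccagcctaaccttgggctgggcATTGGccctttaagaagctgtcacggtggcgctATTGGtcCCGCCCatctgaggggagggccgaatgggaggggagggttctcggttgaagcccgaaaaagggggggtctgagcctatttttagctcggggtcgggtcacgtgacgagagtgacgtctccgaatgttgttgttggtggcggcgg
Hdac6, chrX:7947840-7948139, minus strand: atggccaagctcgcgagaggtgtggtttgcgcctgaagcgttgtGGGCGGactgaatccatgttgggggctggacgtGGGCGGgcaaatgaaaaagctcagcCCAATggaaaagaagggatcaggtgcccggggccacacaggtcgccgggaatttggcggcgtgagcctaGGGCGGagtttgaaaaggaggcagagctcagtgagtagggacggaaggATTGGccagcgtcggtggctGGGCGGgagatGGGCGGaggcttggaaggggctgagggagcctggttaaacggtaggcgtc

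All 4 windows hold both boxes, with 22 CpG in Arid5a, 15 in Setdb1, 18 in Hdac5 and 20 in Hdac6. Hdac6 has 5 GC boxes and 2 CCAAT boxes, Arid5a 3 and 1, Hdac5 1 and 2, and Setdb1 1 of each. The high and the low genes are thus not set apart by these letters. Over all chromatin gene promoters the median was 26 CpG, against 20 over promoters of all expressed genes and 7 over all 32851 promoters in the table. A GC box occurred in 69.2% of chromatin gene promoters, in 62.1% of those of all expressed genes and in 35.7% of all promoters. A CCAAT box occurred in 36.3%, 37.3% and 37.4%, a TATA box in 4.4%, 7.05% and 13.6%, and the response element in 2.2%, 3.09% and 3.44%. These are matches of letters and not sites shown to be bound.

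Chromatin genes have long transcripts, and ratios in these libraries were lower for long transcripts. The median length of the longest annotated transcript, coding or not, was 5412.5 nt for the 84 genes and 3362 nt for all genes. Of the 84, 59 (70.2%) fell in the 3 longest of 10 equal groups by length. The median log2 ratio of all genes was -0.02 in the shortest group and -0.42 in the longest. In the longest, from 6719 nt upward, the 26 chromatin genes had a median of -0.43 and 13 of them lay below that of all genes there. Compared with the median of their own length group, 45 of the 84 lay below and 39 above. With the length trend removed by lowess, the median of the 84 genes was -0.02, close to 0 as for all genes, and 40 were above 0 and 44 below. Class medians were then 0.02 for writers, -0.10 for erasers, -0.05 for readers, -0.03 for remodellers and 0.54 for the other ARID genes.

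Without the length trend, 2 genes were 2-fold higher (2.38%, against 4.33% of all genes), namely Arid5a and Setdb1, at 1.76 and 1.17. Hdac5 alone was 2-fold lower, at -1.03 (1.19%, against 2.86%). Hdac6 was then at -0.89, Hdac8 at -0.70, Smarca2 at -0.62, Ezh1 at -0.61 and Kdm4b at -0.57. Of the longest genes, Chd7 was at 0.92, Hdac4 at 0.35 and Kmt2d, with 19823 nt the longest transcript among them, at 0.32, whereas Kmt2e was at -0.55, Setd5 at -0.49, Setd7 at -0.45, Kdm7a at -0.42 and Chd3 at -0.29. RNA integrity could not be assessed from these tables, and its part in the length trend was not tested.

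**Figure D4:**
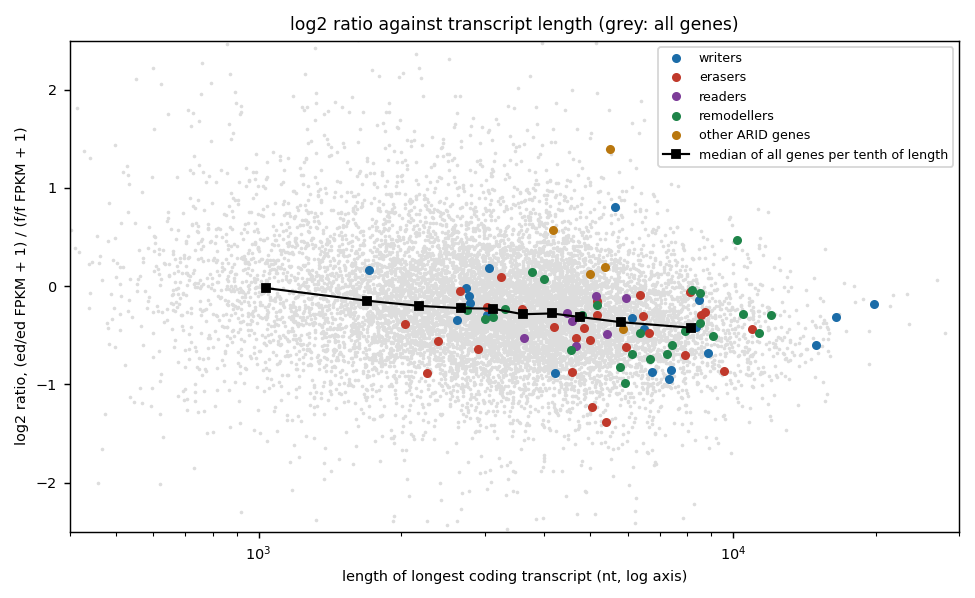
Log2 ratio against the length of the longest annotated transcript (log axis), with all genes in grey and chromatin genes coloured by class. The axis label says coding, but the transcript may be coding or not. Black squares are the median of all genes in each of 10 equal groups by length, and genes outside the axes are not drawn. Most coloured points scatter around the falling black line, with Setdb1 and Arid5a above it and Hdac5 and Hdac6 below.

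The partners of these enzymes were followed in 8 further lists of chromatin genes, with 125 of 129 symbols found and 121 at 1 FPKM or more. Their median log2 ratio was -0.33, 0.07 below all genes, and 2 were 2-fold lower (1.65%, against 6.22% of all genes) and 0 higher (against 2.68%). The corepressor list, whose members hold deacetylases in NuRD, Sin3, NCoR and CoREST complexes, had the lowest median, -0.64. All 12 of its genes were lower in ed/ed, as were 70.4% of all genes, and 11 of the 12 lay below the median of all genes. Mta2, the most abundant, was at 50.3 FPKM in f/f against 38.8 in ed/ed, while the NuRD genes Gatad2b and Mta1 were at 10.3 and 4.74 and at 29.2 and 16.2. Ncor1 was at 27.4 and 16.4 FPKM. Without the length trend the list median was -0.28 and 10 of 12 were below 0. These genes and Hdac1, Chd3 and Chd4 had lower FPKM in ed/ed, whereas Hdac2, Mbd3 and the Sin3 subunit gene Arid4a had higher FPKM. Between f/f and ed/ed, Hdac2 went from 95.6 to 102 FPKM, Mbd3 from 63.7 to 66.5 and Arid4a from 5.56 to 6.16. Whether whole complexes changed together was not tested. Stromal, endothelial, steroid receptor and proliferation markers were also lower in ed/ed, myometrial and immune markers were higher, and epithelial markers went both ways. The part of these markers in the values above was not tested.

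Acetyltransferase genes, which oppose the deacetylases, had a median of -0.25, close to that of all genes. All 10 were lower in ed/ed, as were 70.4% of all genes, and 5 lay above and 5 below the all-gene median. Hat1 was the most abundant at 21.9 and 19.5 FPKM. Polycomb genes had a median of -0.27 over 25 members, of which 6 were above 0. Cbx7, a reader of the Polycomb mark, was 2-fold lower at 5.43 and 1.94 FPKM, but not without the length trend (-0.76) or under the median-ratio, upper-quartile and reference-gene scalings. Its relative Cbx8 was at 7.36 and 14.1 FPKM, and Rbbp4 was the most abundant at 155 and 99.0. Other methyltransferases and partners had a median of -0.26 over 23 members, led by Prmt1, an arginine methyltransferase gene, at 96.2 and 77.7 FPKM. DNA methylation genes had a median of -0.46 over 11 members. Mbd1, which binds methylated DNA, was 2-fold lower at 29.96 and 14.1 FPKM, but not without the length trend (-0.77) or under any of the 4 other scalings. The most abundant was Mbd3 at 63.7 and 66.5. Other erasers had a median of -0.53 over 9 members, led by Sirt2 at 36.4 and 27.8 FPKM. Other bromodomain genes had a median of -0.33 over 15, led by Trim28, the corepressor that recruits Setdb1, at 88.8 and 58.1. Other remodeller subunits had the highest median, -0.16 over 16 members, led by Bcl7c at 82.8 and 74.98 FPKM. Without the length trend the list medians were -0.01 for acetyltransferases, 0.07 for Polycomb genes, -0.07 for other methyltransferases, -0.14 for DNA methylation genes, -0.20 for other erasers, 0.05 for other bromodomain genes and 0.18 for other remodeller subunits.

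**Figure D5:**
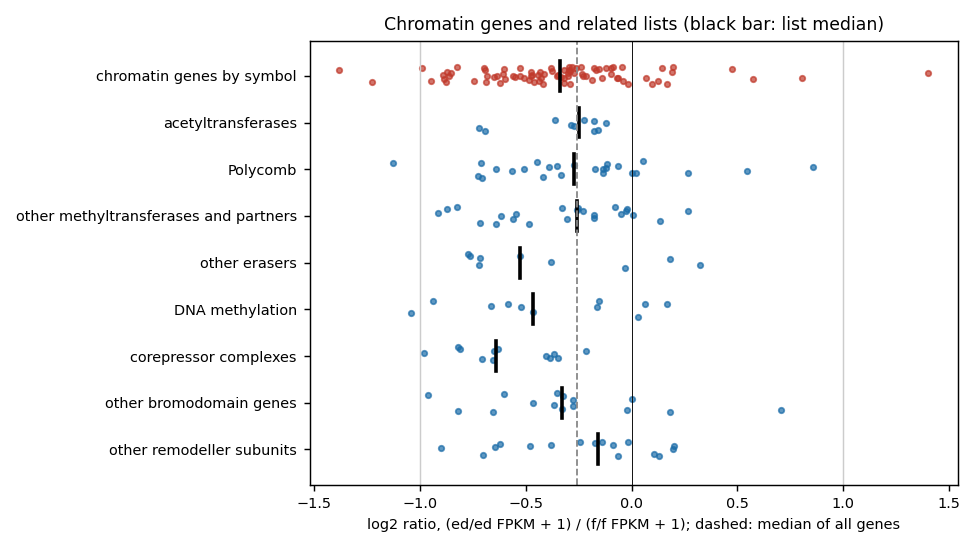
Log2 ratio, ed/ed to f/f with 1 FPKM added to each, of the 84 chromatin genes chosen by symbol (red) and of 8 further lists of chromatin genes (blue), with black bars for list medians and a dashed line at the median of all genes (-0.26). The corepressor genes lie furthest left as a group, with a median of -0.64, and Cbx7 and Mbd1 are the blue points beyond 2-fold.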

How the data were processed

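The authors' deposited tables give 1 value per gene for each library, taken as FPKM. That unit is an inference from Cufflinks 2.2.1, which with HISAT2 2.2.1 is named in the submitters' processing notes, and from values with decimals and exact zeros. The notes name builds mm9 and mm10 without a role; annotation, strand setting and filters: not given in the sources used here. Libraries came from TRIzol RNA and an Illumina TruSeq kit, per the labels' protocols. Because FPKM divides by length and total fragments, a few abundant genes or a loss of long transcripts can move many values together.

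With Python 3.11.15, pandas 2.3.3, scipy 1.17.1 and statsmodels 0.14.6, log2 ratios used a pseudocount of 1 FPKM and a filter of 1 FPKM in either library. A gene was called at 2-fold, a rule of size. Transcript lengths, GC content, exon overlaps (given at 5% or more) and coordinates came from GENCODE M21 on GRCm38, matched for all 88 chromatin genes. They place genes, not reads. Length is that of the longest annotated transcript of a gene, coding or not, which may be longer than the form expressed. A lowess fit of fraction 0.3 gave the length trend. Fragments were estimated from the spacing of low FPKM values times effective length (length less 250 nt) in genes with 1 transcript over 1000 nt: 0.0547 in f/f (concentration 0.375 in 313 genes, at most 0.145 at other spacings) and 0.0576 in ed/ed (0.401 in 323 genes, at most 0.175). Counting intervals at 95% are exact for a gene between libraries and normal on the log scale for 2 genes within a library. They cover counting error only. Fragments of a gene were taken from its longest annotated transcript, so where a shorter form is expressed they are overstated and the intervals too narrow. Scripts were tested on simulated data. No test was run, since each genotype has 1 library.

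Classes, sets and lists were chosen with earlier results of these data known. Any chromatin gene may be named; of the further lists, the genes past 2-fold and the most abundant were named, and Eed, Suz12, Gatad2b, Mta1, Ncor1 and Cbx8 were chosen after their values were seen. The values of 1 reader gene are counted in its class but not reported here.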

Additional observations from a re-analysis of the deposited data

How the results depend on the processing

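A count was taken as kept within 1.5 times its value, and a median within 0.1 on the log2 scale. Of 156 counts and medians recomputed under 11 alternatives, 97 were kept. As deposited, 326 of all genes were 2-fold higher and 757 lower. With a pseudocount of 0.1 FPKM, 1336 genes, 6 chromatin genes and 5 of the further lists were lower. With 5 FPKM, 112 genes were higher and 207 lower, 0 chromatin genes passed in either direction, 0 of the further lists were lower, and the median of the other ARID genes stood 0.26 above all genes. At 1.5-fold, 856 genes were higher and 2850 lower, with 2 and 22 chromatin genes and 2 and 36 of the further lists. With no filter the median of all genes is 0, since genes listed at 0 enter, and medians relative to it were -0.32 for chromatin genes, -0.33 for the further lists, and -0.32, -0.41, -0.35, -0.33 and 0.16 for writers, erasers, readers, remodellers and other ARID genes. A filter at 5 FPKM gave 0.61 for the other ARID genes.

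Scaling to the f/f sum left 1 gene of the further lists lower. The median-ratio scaling gave 600 genes higher and 387 lower, 2 chromatin genes higher and 1 lower, a chromatin median of -0.0931, and 1 and 0 of the further lists. The upper-quartile scaling gave 506 and 466 genes, 2 chromatin genes higher, a median of -0.17, and 1 and 0 of the further lists. Reference genes gave 667 and 350 genes, 2 chromatin genes higher and 1 lower, a median of -0.0596, and 2 and 0 of the further lists. The share of higher genes among those called was 30.1% as deposited and 38.9% to 65.6% under these scalings. Without the length trend there were 527 and 348 genes, 2 and 1 chromatin genes, a median of -0.0213, and 2 and 0 of the further lists. Removing GC content as well gave 512 and 354 genes, 2 and 1 chromatin genes, a median of -0.0264, 2 and 0 of the further lists, and writers 0.0459 above all genes. The cause of these shifts was not tested. The 13 single genes recomputed were those with a log2 ratio of at least 0.8 in either direction as deposited. None changed sign, but the other scalings add at most 0.34 and so could not have reversed these genes. Arid5a and Hdac5 passed 2-fold under every alternative but the pseudocount of 5 FPKM (0.69 and -0.996). No paired analysis was possible because each genotype has 1 library, and no replicate could be left out.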

Other observations

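Mettl3 methylates adenosine in RNA within a short consensus, of which GGACT is a common form. The search used the transcript strand of the longest annotated transcript, coding or not, which need not be the expressed mRNA. GGACT occurred at a median of 0.973 matches per kilobase in the 84 expressed chromatin genes and 1.04 in all expressed genes. By count per transcript the medians were 5 and 3, since chromatin genes are longer. Writers had 1.32 per kilobase, erasers 0.988, readers 0.828, remodellers 0.866 and the other ARID genes 1.00. Kmt2a had the most matches of any chromatin gene, 19, followed by Kmt2b with 18 and Kmt2d with 17, while Smarca5 and Hdac10 had 0. Hdac5 had 5 matches, Hdac6 6, Arid5a 7 and Setdb1 9. A match is a run of letters and not a methylated site, and no methylation was measured in these libraries.

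Of the 84 expressed chromatin genes, 65 had a counting interval of the plain FPKM ratio that lay below 1, 7 above 1 and 12 across it. Against the median ratio of all genes, 0.813, 40 lay below, 22 above and 22 across it. Such intervals were not computed for all genes, of which 70.4% had lower FPKM in ed/ed, so these counts have no background share. Brwd1, a bromodomain gene of the further lists chosen here after its values were seen, had 12.7 FPKM in f/f against 21.3 in ed/ed, and reached 2-fold (log2 ratio 1.15) without the length trend, as did Cbx8 (1.11).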
